A study of Mus musculus with 14 samples.

Results

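The genes described here are the matrix metalloproteinases (Mmp), the secreted ADAMTS proteinases (Adamts), the tolloid proteinases (Bmp1, Tll1 and Tll2) and the tissue inhibitors of metalloproteinases (Timp). They were chosen by gene symbol, with 1 probe set per gene (the one with the highest mean over the 14 arrays), and number 47 of the 19935 genes measured: 22 Mmp, 18 Adamts, 3 tolloid and 4 Timp genes. The cells were ICR mouse embryonic fibroblasts in stem cell medium, freed of feeder cells before lysis, and their RNA was read on Affymetrix whole-transcript arrays. Cells received SKO with HDAC7 (SKO+HDAC7), SKO with MEF2C (SKO+MEF2C), SKO with an empty Flag vector (SKO+Flag), or GFP, and were lysed at day 10 or day 6. Each SKO group has 2 arrays per day and GFP has 1 array per day. SKO is given without its full name; in reprogramming work it usually means Oct4 (gene Pou5f1), Sox2 and Klf4. MEF2C is a transcription factor, and HDAC7 belongs to the class IIa deacetylases, which bind and repress factors of the MEF2 family. Whether experiments 1 and 2 of a group were separate cultures is not stated in the labels, and p-values therefore cover the spread between arrays, possibly a technical one.

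Mmp and Adamts enzymes are zinc proteinases that cut collagens, proteoglycans and other proteins of the extracellular matrix, and most are made as inactive precursors. Timp proteins block their active site, and tolloid proteinases trim procollagen so that it can form fibrils. Fibroblasts are a main source of these enzymes and of their substrates, and cells that turn from a mesenchymal to an epithelial state are known to change both.

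The deposited values are log2 expression values, and the median of an array lay between 5.68 and 5.76. Levels of different genes come from different probes and are not set against each other. Hdac7 read between 11.16 and 11.38 on the SKO+HDAC7 arrays, against 6.88 to 7.01 in SKO+Flag, and Mef2c read between 9.47 and 9.93 on the SKO+MEF2C arrays, against 6.43 to 6.81 in SKO+Flag. Pou5f1 read 11.70 to 12.10 on the SKO arrays and 5.18 and 5.24 in GFP, whereas Sox2 read 5.04 to 5.37 on the SKO arrays and 4.93 and 5.27 in GFP, and Klf4 read 8.80 to 9.18 on the SKO arrays and 8.66 and 8.93 in GFP. Whether those probe sets lie in the transduced sequence was not tested. All 10 fibroblast markers lay above the array median on every array. Of the 5 neutrophil markers 0 did, and Ptprc, Csf1r, Adgre1, Lyz2, Fcer1g and Tyrobp of the 8 macrophage and blood markers lay below it on all 14 arrays. The other two, Itgam and Cd68, did not: SKO+Flag exceeded GFP by 1.00 in Itgam and 0.55 in Cd68, and Cd68 was higher with HDAC7 than in SKO+Flag by 0.63.

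Among the 47 members, 19 lay below the array median on all 14 arrays, with values between 4.29 and 5.75, so that no signal above background is shown for them. They are Mmp1a, Mmp1b, Mmp7, Mmp8, Mmp9, Mmp12, Mmp20, Mmp21, Mmp24, Mmp25, Mmp27, Adamts8, Adamts13, Adamts16, Adamts18, Adamts19, Adamts20, Tll2 and Timp4. Mmp1a and Mmp1b are close paralogs whose probes may share signal. A further 21 members lay above the median on all arrays. The other 7 crossed it: Mmp10, Mmp17, Mmp19, Adamts3, Adamts4, Adamts14 and Adamts15.

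A run of 10 Mmp genes lies side by side on chromosome 9 in RefSeq (GRCm38.p6), in the order Mmp13, Mmp12, Mmp1b, Mmp3, Mmp1a, Mmp10, Mmp8, Mmp27, Mmp20 and Mmp7, with 0 other protein-coding genes between them. Of these, 7 were below the array median on all arrays, and Mmp13 (a collagenase), Mmp3 and Mmp10 (stromelysins) were not. AP-1 is a dimer of Jun and Fos proteins long known to act on Mmp promoters. In the 250 bases before the RefSeq gene start, which were available for 32 of the 47 members, the AP-1 motif TGANTCA, which reads the same on both strands, was present in 8 members. All 8 belong to the run on chromosome 9 (8 of its 10 members, against 0 of the 22 members elsewhere), and 6.75% of all 32851 RefSeq promoter windows of this length hold the motif. Mmp1a, Mmp1b, Mmp7, Mmp12 and Mmp20 hold the motif too, although they lay below the array median on all arrays. The 3 members of the run that lay above the array median on some or all arrays are shown, with the AP-1 match in capitals.
Mmp13, chr9:7272264-7272513, plus strand: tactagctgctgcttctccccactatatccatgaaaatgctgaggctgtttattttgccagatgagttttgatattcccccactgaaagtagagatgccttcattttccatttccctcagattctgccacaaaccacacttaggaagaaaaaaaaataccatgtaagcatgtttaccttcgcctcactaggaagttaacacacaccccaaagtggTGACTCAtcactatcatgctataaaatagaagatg
Mmp3, chr9:7445572-7445821, plus strand: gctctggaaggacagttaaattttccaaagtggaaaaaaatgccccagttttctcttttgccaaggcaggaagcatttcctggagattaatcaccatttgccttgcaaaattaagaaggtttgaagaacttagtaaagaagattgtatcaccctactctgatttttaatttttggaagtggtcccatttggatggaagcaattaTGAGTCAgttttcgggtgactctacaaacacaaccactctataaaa
Mmp10, chr9:7502092-7502341, plus strand: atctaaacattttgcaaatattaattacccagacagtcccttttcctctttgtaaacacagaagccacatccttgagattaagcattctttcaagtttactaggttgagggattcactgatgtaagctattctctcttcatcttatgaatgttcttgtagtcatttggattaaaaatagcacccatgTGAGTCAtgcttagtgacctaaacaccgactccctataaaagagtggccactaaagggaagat
The match starts 35 bases before the gene start in Mmp13, 46 in Mmp3 and 63 in Mmp10. The ETS core, GGAA on either strand, was found in 29 of the 32 members and in 93.4% of all windows, and the MEF2 motif in 1 member (Mmp10) and in 2.92% of all windows. Adamts1 and Tll1 are shown because they are the members whose MEF2C effect differed between the days, with ETS cores in capitals. Neither window holds the AP-1 or the MEF2 motif.
Adamts1, chr16:85803114-85803363, minus strand: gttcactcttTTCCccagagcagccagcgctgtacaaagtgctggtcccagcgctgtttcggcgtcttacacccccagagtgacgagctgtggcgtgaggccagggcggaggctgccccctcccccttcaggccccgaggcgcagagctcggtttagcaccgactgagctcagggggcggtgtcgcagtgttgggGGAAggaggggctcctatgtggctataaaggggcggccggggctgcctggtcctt
Tll1, chr8:64206009-64206258, minus strand: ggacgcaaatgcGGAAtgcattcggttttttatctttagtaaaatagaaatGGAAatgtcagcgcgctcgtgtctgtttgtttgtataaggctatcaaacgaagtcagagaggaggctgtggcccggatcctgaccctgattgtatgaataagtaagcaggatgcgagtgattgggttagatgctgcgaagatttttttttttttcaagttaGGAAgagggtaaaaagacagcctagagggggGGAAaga
A match is a run of letters and shows no binding.

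Averaged over both days, HDAC7 lowered 12 of the 47 members and raised 1 relative to SKO+Flag (limma, Benjamini-Hochberg adjusted p under 0.05 over all genes), and of all genes 6.06% were called lower and 4.83% higher. With median centring the balance over all genes moved to 1519 lower and 637 higher, against 1208 and 963 as deposited, with 13 members lower and 1 higher. Leaving out 1 array changed the number raised: without SKO+Flag day 6 replicate 2, 5 members were raised and 10 lowered, without SKO+Flag day 10 replicate 1, 3 and 12, and without SKO+HDAC7 day 6 replicate 2, 2 and 9. Without SKO+Flag day 6 replicate 1 or SKO+HDAC7 day 6 replicate 1, 0 were raised and 9 or 12 lowered. The robust prior and quantile normalization each gave 2 raised and 12 lowered. The lowered genes were Adamts3, Adamts1, Adamts6, Mmp16, Adamts5, Mmp2, Mmp13, Mmp19, Timp2, Tll1, Mmp14 and Mmp11, by 0.18 to 0.73 on the log2 scale. Adamts14 was the called member on the higher side, with both groups below the array median, so that no fold is given. The median difference was -0.021 over the members and 0.018 over all genes. Of the 7 epithelial markers 4 were called higher with HDAC7, and of the 10 fibroblast markers 2 were higher and 6 lower. The summed intensity of the epithelial markers, as log2, was 8.807 to 10.39 in SKO+HDAC7, 8.367 to 8.828 in SKO+MEF2C, 8.621 to 9.651 in SKO+Flag and 8.459 to 8.496 in GFP, and Krt5, a keratinocyte keratin, was below the array median on all arrays. That of the fibroblast markers was 13.98 to 14.32 in SKO+HDAC7 and 14.38 to 14.5 in SKO+MEF2C, against 14.2 to 14.45 in SKO+Flag.

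MEF2C raised 6 members and lowered 5 relative to SKO+Flag, while 5.49% of all genes were called higher and 4.82% lower. That balance over all genes turned with the scaling, to 838 higher and 1040 lower with median centring and 1049 and 1097 with quantile normalization, whereas the members stayed at 6 and 5 with both. Tll1 (1.13 ± 0.056 SE, 2.19-fold higher), Adamts1, Timp1, Mmp16, Adamts5 and Mmp14 rose. Adamts3, Mmp28, Timp3, Adamts7 and Mmp3 fell, by 0.28 to 0.57. The median difference was 0.05 over the members and 0.0079 over all genes. Of the 7 epithelial markers 4 were lower with MEF2C, and of the 10 fibroblast markers 3 were higher and 0 lower. Both comparisons use the same SKO+Flag arrays, so their values are given side by side and no overlap between them is counted.

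Set directly against each other, SKO+HDAC7 was lower than SKO+MEF2C in 13 members and higher in 5, against 11.8% of all genes called lower and 10.3% higher. Tll1 was 2.56-fold lower and Adamts1 2.33-fold lower in SKO+HDAC7, followed by Mmp16, Adamts6, Adamts5, Mmp19, Mmp13, Mmp14, Timp1, Mmp2, Timp2, Mmp11 and Mmp23. Averaged over days, Mmp28, Timp3, Mmp3 and Adamts7 were higher in SKO+HDAC7, by 0.17 to 0.68. Of these, Mmp3 was higher in SKO+HDAC7 at day 6 and lower at day 10, and the Adamts7 values of the groups overlapped at day 10. Adamts14 was called higher with both groups below the array median, so that no size is given. The number higher was 3 without either SKO+HDAC7 day 6 array, SKO+MEF2C day 6 replicate 1 or SKO+MEF2C day 10 replicate 2. The median difference was 0.0081 over the members and 0.0138 over all genes.

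The expression of SKO with the empty vector, set against GFP, lowered 21 members and raised 6, and of all genes 18.2% were called lower and 17.5% higher. With median centring, 2865 of all genes were lower and 3773 higher, against 3621 and 3497 as deposited, and 19 members were lower and 6 higher. Mmp28 (3.72-fold), Adamts7 (3.16-fold), Adamts3 (2.76-fold), Timp3, Adamts6 and Mmp10 were higher in SKO+Flag. Adamts5, Mmp19, Mmp2, Mmp13, Adamts1, Mmp23, Adamts12, Mmp14, Mmp16, Adamts4, Adamts14, Bmp1, Timp2 and Adamts9 were lower by 0.67 to 1.55. Smaller decreases, of 0.21 to 0.44, were called for Adamts10, Mmp3, Mmp17 and Adamts17. Adamts13, which cuts von Willebrand factor, and Mmp9, a gelatinase, were called lower with both groups below the array median, and Adamts15 with all SKO+Flag arrays and the GFP day 6 array below it, so that no size is given for these. The median difference was -0.16 over the members and -0.0368 over all genes. GFP has 1 array per day, and its spread is taken from the other groups. The summed intensity of the 10 fibroblast markers, as log2, was 14.2 to 14.45 on the SKO+Flag arrays and 14.8 to 15.06 in GFP, and 8 of the 10 were called lower. Of the 7 epithelial markers 4 were called higher in SKO+Flag than with GFP, with the epithelial adhesion gene Epcam at 1.90.

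Other marker lists moved as well. Of the 5 endothelial markers, Pecam1, Cdh5, Kdr and Tie1 were below the array median on all arrays. The fifth, Tek, the angiopoietin receptor, differed by 0.60 with HDAC7 and -0.67 with MEF2C from SKO+Flag, and by 2.78 between SKO+Flag and GFP. The summed endothelial intensity, as log2, was 8.602 to 9.521 in SKO+HDAC7, 8.067 to 8.39 in SKO+MEF2C, 8.291 to 8.922 in SKO+Flag and 7.462 to 7.511 in GFP. That of the 4 chondrocyte markers was 8.345 to 8.944 in SKO+HDAC7, 9.031 to 9.184 in SKO+MEF2C, 8.8 to 9.107 in SKO+Flag and 8.983 to 9.078 in GFP. Among these, Col2a1 was lower with HDAC7 (-0.39) and Acan higher with MEF2C (0.81), and SKO+Flag was lower than GFP in Comp (-0.92) and Sox9 (-0.87) and higher in Col2a1 (0.34). Of the 4 osteoclast markers, Calcr and Oscar were below the array median on all arrays, Ctsk was higher with MEF2C (0.27), and SKO+Flag was lower than GFP in Ctsk (-0.95) and Acp5 (-0.26). The part of these cell types in the members' values was not tested. In bulk RNA, fewer cells of a type and less RNA per cell cannot be told apart.

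**Figure D1:**
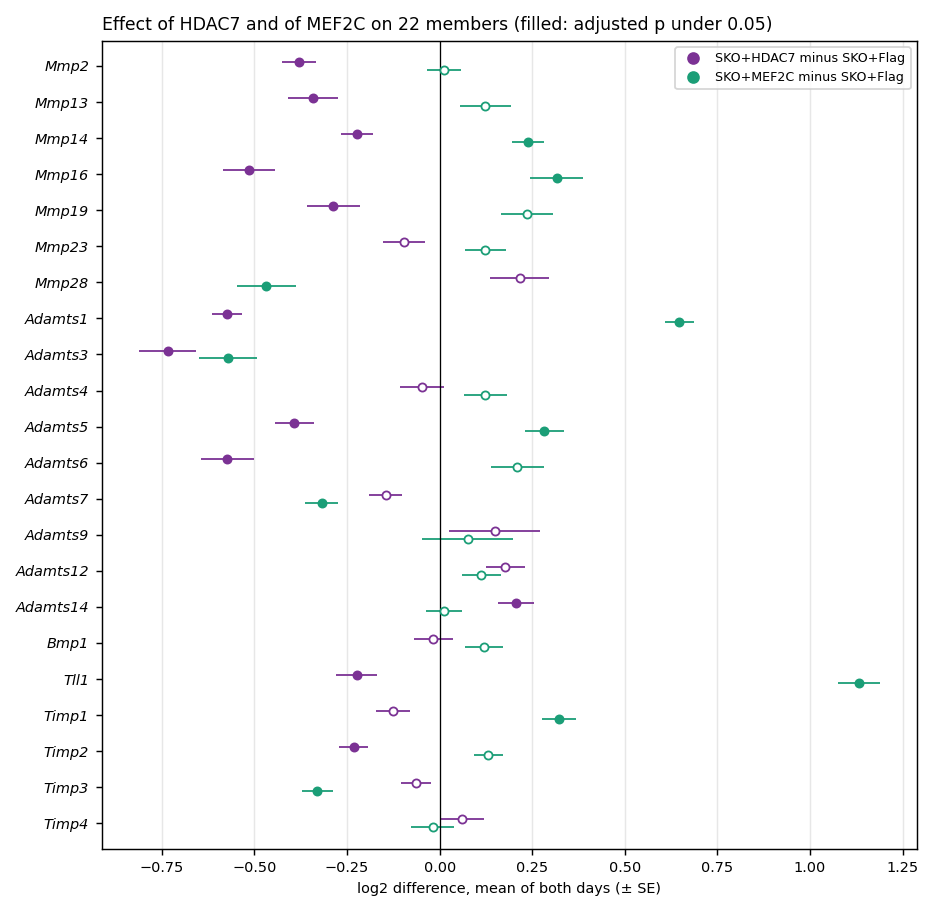
Log2 difference from SKO+Flag, averaged over both days (mean ± SE, 4 arrays against 4), for the 22 members named by size of effect or by role. Purple marks SKO+HDAC7 and green SKO+MEF2C, and filled points had an adjusted p under 0.05. Tll1 and Adamts1 lie farthest to the right for MEF2C and Adamts3 farthest to the left for HDAC7.

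Mmp2 is gelatinase A, and Mmp14 (MT1-MMP) is the membrane collagenase that activates it at the cell surface with Timp2 as adaptor. At day 10, Mmp2 read 8.54 and 8.44 in SKO+HDAC7, 8.998 and 8.99 in SKO+MEF2C, 8.87 and 8.78 in SKO+Flag, and 11.02 in GFP. At day 6, Mmp2 read 8.82 and 8.89 in SKO+HDAC7, 9.10 and 9.17 in SKO+MEF2C, 9.24 and 9.32 in SKO+Flag, and 9.94 in GFP. SKO+HDAC7 was the lowest group on both days, SKO+MEF2C lay above SKO+Flag at day 10 and below it at day 6, GFP was the highest, and no group overlapped another on a day. Relative to SKO+Flag the mean difference was -0.38 ± 0.046, adjusted p = 0.000371 with HDAC7 and 0.01 ± 0.046, adjusted p = 0.938 with MEF2C. SKO+Flag was 4.58-fold lower than GFP at day 10 and 1.58-fold lower at day 6, 2 arrays against 1 on each day. At day 10, Mmp14 read 9.25 and 9.20 in SKO+HDAC7, 9.70 and 9.78 in SKO+MEF2C, 9.52 and 9.46 in SKO+Flag, and 10.71 in GFP. At day 6, Mmp14 read 9.36 and 9.43 in SKO+HDAC7, 9.77 and 9.84 in SKO+MEF2C, 9.56 and 9.60 in SKO+Flag, and 10.44 in GFP. The 4 groups kept the order SKO+HDAC7, SKO+Flag, SKO+MEF2C, GFP on both days, without overlap. The differences from SKO+Flag were -0.22 ± 0.043, adjusted p = 0.00686 with HDAC7 and 0.24 ± 0.043, adjusted p = 0.00448 with MEF2C.

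Mmp16 (MT3-MMP) is a membrane-bound relative of Mmp14. At day 10, Mmp16 read 5.86 and 6.01 in SKO+HDAC7, 7.04 and 7.02 in SKO+MEF2C, 6.44 and 6.74 in SKO+Flag, and 7.78 in GFP. At day 6, Mmp16 read 6.71 and 6.61 in SKO+HDAC7, 7.30 and 7.14 in SKO+MEF2C, 7.08 and 6.99 in SKO+Flag, and 7.69 in GFP. SKO+HDAC7 lay below SKO+Flag and SKO+MEF2C above it on each day. Its differences from SKO+Flag were -0.52 ± 0.071, adjusted p = 0.000881 with HDAC7 and 0.32 ± 0.071, adjusted p = 0.0159 with MEF2C. The MEF2C call was lost without SKO+Flag day 6 replicate 2, SKO+MEF2C day 6 replicate 1 or SKO+MEF2C day 10 replicate 1, with adjusted p of 0.0534 to 0.069.

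Mmp13 is collagenase 3, which cuts fibrillar collagens. At day 10, Mmp13 read 6.24 and 6.24 in SKO+HDAC7, 7.13 and 7.07 in SKO+MEF2C, 6.63 and 6.74 in SKO+Flag, and 8.75 in GFP. At day 6, Mmp13 read 6.78 and 6.89 in SKO+HDAC7, 6.84 and 6.98 in SKO+MEF2C, 7.23 and 6.92 in SKO+Flag, and 7.71 in GFP. At day 10 the groups were apart, with SKO+HDAC7 lowest and SKO+MEF2C above SKO+Flag, and at day 6 SKO+MEF2C overlapped both SKO+HDAC7 and SKO+Flag. The averaged difference from SKO+Flag was -0.34 ± 0.068, adjusted p = 0.00853 with HDAC7 and 0.12 ± 0.068, adjusted p = 0.335 with MEF2C. Mmp19 cuts basement membrane proteins. At day 10, Mmp19 read 5.54 and 5.67 in SKO+HDAC7, 6.44 and 6.33 in SKO+MEF2C, 6.03 and 6.08 in SKO+Flag, and 7.88 in GFP. At day 6, Mmp19 read 6.32 and 5.99 in SKO+HDAC7, 6.48 and 6.35 in SKO+MEF2C, 6.25 and 6.30 in SKO+Flag, and 7.47 in GFP. At day 10 SKO+HDAC7 was below the array median and below SKO+Flag, and at day 6 its values spanned those of SKO+Flag. The HDAC7 difference (-0.29 ± 0.071, adjusted p = 0.026) lost its call without any 1 of 5 arrays (SKO+Flag day 6 replicate 1 or 2, SKO+Flag day 10 replicate 2, SKO+HDAC7 day 6 replicate 2 or SKO+HDAC7 day 10 replicate 1), with adjusted p of 0.0578 to 0.0993.

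Mmp23 has no hemopexin domain, which most Mmp enzymes carry. At day 10, Mmp23 read 6.002 and 6.08 in SKO+HDAC7, 6.37 and 6.44 in SKO+MEF2C, 6.20 and 6.16 in SKO+Flag, and 7.68 in GFP. At day 6, Mmp23 read 6.43 and 6.54 in SKO+HDAC7, 6.49 and 6.65 in SKO+MEF2C, 6.46 and 6.62 in SKO+Flag, and 7.38 in GFP. GFP was above every SKO array, and the SKO groups overlapped at day 6. It was 2.25-fold lower in SKO+Flag than with GFP, and the difference between SKO+HDAC7 and SKO+MEF2C (-0.22 ± 0.056, adjusted p = 0.015) lost its call without any 1 of 4 arrays (SKO+HDAC7 day 6 or day 10 replicate 1, SKO+MEF2C day 6 or day 10 replicate 2), with adjusted p of 0.0599 to 0.066.

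Mmp28 (epilysin) is known from keratinocytes and other epithelia. At day 10, Mmp28 read 8.38 and 8.10 in SKO+HDAC7, 7.64 and 7.73 in SKO+MEF2C, 8.10 and 8.21 in SKO+Flag, and 6.21 in GFP. At day 6, Mmp28 read 7.93 and 8.09 in SKO+HDAC7, 7.25 and 7.14 in SKO+MEF2C, 7.52 and 7.81 in SKO+Flag, and 5.82 in GFP. Every SKO array lay above GFP, and SKO+MEF2C was the lowest SKO group on both days. SKO+HDAC7 overlapped SKO+Flag at day 10 and lay above it at day 6. The difference from SKO+Flag was 0.22 ± 0.080, adjusted p = 0.118 with HDAC7 and -0.47 ± 0.080, adjusted p = 0.00345 with MEF2C, and SKO+HDAC7 exceeded SKO+MEF2C by 0.68 ± 0.080, adjusted p = 9.77e-05.

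Mmp3 (stromelysin 1) was described here after its values were seen. At day 10, Mmp3 read 7.27 and 7.32 in SKO+HDAC7, 7.73 and 7.58 in SKO+MEF2C, 7.63 and 7.87 in SKO+Flag, and 8.38 in GFP. At day 6, Mmp3 read 7.54 and 7.52 in SKO+HDAC7, 6.69 and 6.82 in SKO+MEF2C, 7.17 and 7.29 in SKO+Flag, and 7.40 in GFP. SKO+HDAC7 was the lowest SKO group at day 10 and the highest at day 6. Relative to SKO+Flag it was lower with HDAC7 at day 10 (-0.46 ± 0.088, adjusted p = 0.0101) and higher at day 6 without passing the test (0.30 ± 0.088, adjusted p = 0.0861). The call between SKO+HDAC7 and SKO+MEF2C (0.21) had 4 of 8 array pairs of that sign, all of them at day 6. The SKO+HDAC7 arrays lay below the SKO+MEF2C arrays at day 10. Mmp11 (stromelysin 3), which furin activates inside the cell, read 7.29 to 7.76 over all arrays and was lower with HDAC7 than in SKO+Flag by 0.18.

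**Figure D2:**
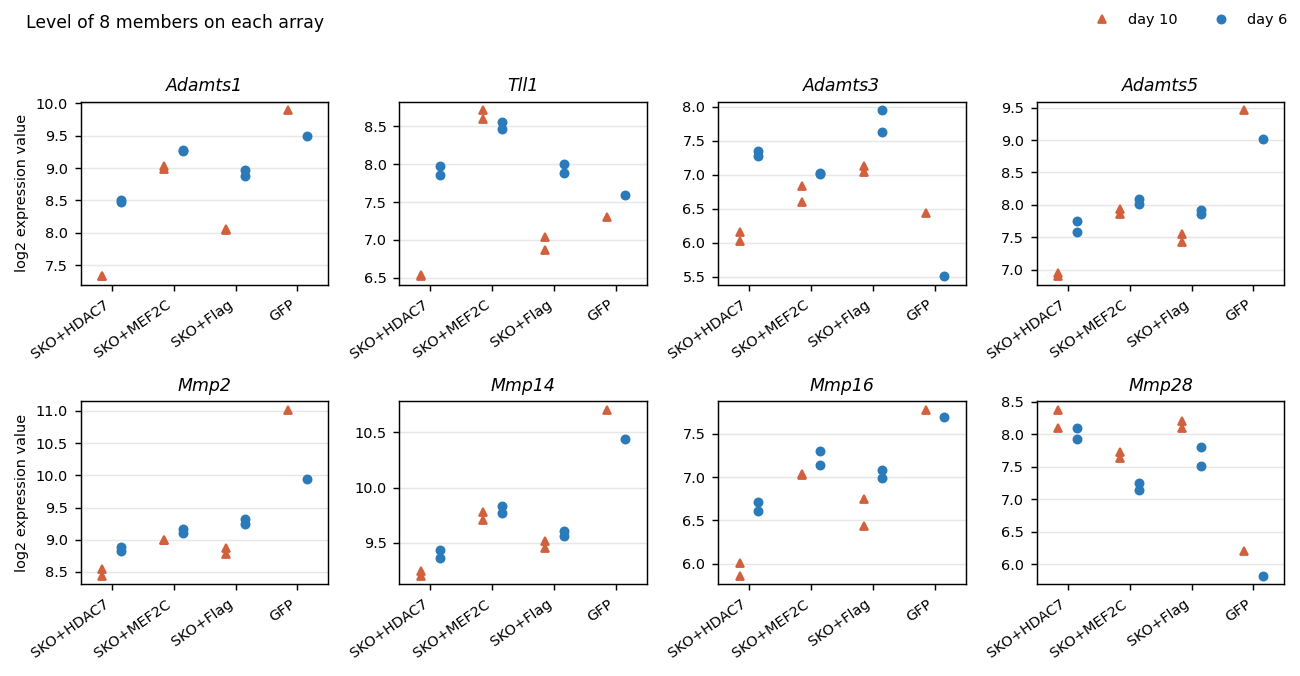
Log2 expression value of 8 members on each of the 14 arrays, by vector, with day 10 as triangles and day 6 as circles. Each panel has its own scale. In Adamts1 and Tll1 the SKO+MEF2C arrays lie above the SKO+HDAC7 and SKO+Flag arrays on both days. In Mmp28 both GFP arrays lie below all SKO arrays.

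Adamts1, Adamts4, Adamts5 and Adamts9 cut the proteoglycans aggrecan and versican. At day 10, Adamts1 read 7.34 and 7.33 in SKO+HDAC7, 8.98 and 9.02 in SKO+MEF2C, 8.04 and 8.07 in SKO+Flag, and 9.90 in GFP. At day 6, Adamts1 read 8.50 and 8.48 in SKO+HDAC7, 9.26 and 9.28 in SKO+MEF2C, 8.88 and 8.97 in SKO+Flag, and 9.49 in GFP. SKO+HDAC7, SKO+Flag, SKO+MEF2C and GFP stood in this order from low to high on each day, without overlap. Adamts1 was 1.49-fold lower with HDAC7 (-0.57 ± 0.040, adjusted p = 6.78e-06) and 1.57-fold higher with MEF2C (0.65 ± 0.040, adjusted p = 3.82e-06) than in SKO+Flag. At day 10, Adamts5 read 6.90 and 6.95 in SKO+HDAC7, 7.85 and 7.93 in SKO+MEF2C, 7.43 and 7.56 in SKO+Flag, and 9.46 in GFP. At day 6, Adamts5 read 7.58 and 7.75 in SKO+HDAC7, 8.09 and 8.02 in SKO+MEF2C, 7.92 and 7.85 in SKO+Flag, and 9.02 in GFP. Adamts5 followed the same order of groups on each day, without overlap. Its differences from SKO+Flag were -0.39 ± 0.053, adjusted p = 0.000744 with HDAC7 and 0.28 ± 0.053, adjusted p = 0.00561 with MEF2C, and SKO+Flag was 2.93-fold lower than GFP.

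Adamts4 lay close to the array median. At day 10, Adamts4 read 5.80 and 5.62 in SKO+HDAC7, 5.96 and 5.93 in SKO+MEF2C, 5.71 and 5.62 in SKO+Flag, and 6.94 in GFP. At day 6, Adamts4 read 5.96 and 5.75 in SKO+HDAC7, 5.998 and 5.91 in SKO+MEF2C, 5.998 and 5.99 in SKO+Flag, and 6.45 in GFP. GFP was the highest on both days, and SKO+HDAC7 overlapped SKO+Flag at day 10. It was 1.82-fold lower in SKO+Flag than with GFP (-0.86 ± 0.072, adjusted p = 2.59e-06), and SKO+Flag was below the array median at day 10. At day 10, Adamts9 read 6.42 and 6.65 in SKO+HDAC7, 6.40 and 6.15 in SKO+MEF2C, 6.25 and 6.29 in SKO+Flag, and 7.24 in GFP. At day 6, Adamts9 read 6.25 and 6.31 in SKO+HDAC7, 6.36 and 6.42 in SKO+MEF2C, 5.90 and 6.58 in SKO+Flag, and 6.62 in GFP. The SKO+Flag arrays of Adamts9 differed most from each other at day 6 and spanned those of SKO+HDAC7 and SKO+MEF2C. SKO+HDAC7 lay below SKO+MEF2C on that day, and GFP exceeded all SKO groups of Adamts9 on both days. All 6 of its probe sets were called lower in SKO+Flag than with GFP, and 0 of 6 were called with HDAC7 or with MEF2C.

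Adamts3 and Adamts14 remove the amino-terminal propeptide of procollagen, and Adamts3 also processes the growth factor VEGF-C. At day 10, Adamts3 read 6.16 and 6.02 in SKO+HDAC7, 6.60 and 6.84 in SKO+MEF2C, 7.04 and 7.14 in SKO+Flag, and 6.44 in GFP. At day 6, Adamts3 read 7.28 and 7.36 in SKO+HDAC7, 7.01 and 7.02 in SKO+MEF2C, 7.95 and 7.62 in SKO+Flag, and 5.51 in GFP. SKO+HDAC7 was the lowest SKO group at day 10, SKO+MEF2C was the lowest at day 6, and SKO+Flag was the highest of the SKO groups on both days. The differences from SKO+Flag were -0.73 ± 0.077, adjusted p = 0.000141 with HDAC7 and -0.57 ± 0.077, adjusted p = 0.000796 with MEF2C, and SKO+HDAC7 minus SKO+MEF2C did not pass the test (-0.16 ± 0.077, adjusted p = 0.174). GFP was below the array median at day 6, so SKO+Flag was at least 4.86-fold higher there, and 1.57-fold higher at day 10. The array holds 16 probe sets for Adamts3, of which 15 were called lower with HDAC7, 12 lower with MEF2C and 16 higher in SKO+Flag than with GFP. Between SKO+HDAC7 and SKO+MEF2C, 15 of the 16 were lower in SKO+HDAC7 and 1 higher, and 3 were called lower. Adamts14 lay below the array median on all 12 SKO arrays. At day 10, Adamts14 read 5.58 and 5.58 in SKO+HDAC7, 5.40 and 5.29 in SKO+MEF2C, 5.53 and 5.39 in SKO+Flag, and 6.28 in GFP. At day 6, Adamts14 read 5.73 and 5.67 in SKO+HDAC7, 5.50 and 5.60 in SKO+MEF2C, 5.40 and 5.42 in SKO+Flag, and 6.28 in GFP. GFP was the highest on both days, so SKO+Flag was at least 1.79-fold lower than GFP. SKO+HDAC7 lay above SKO+Flag on both days, and the call averaged over days was lost without any 1 of 5 arrays (SKO+Flag day 6 replicate 1, SKO+Flag day 10 replicate 2, SKO+HDAC7 day 6 replicate 1 or either SKO+HDAC7 day 10 array), with adjusted p of 0.0574 to 0.0713. The call between SKO+HDAC7 and SKO+MEF2C was lost without SKO+HDAC7 day 6 replicate 1, SKO+MEF2C day 6 replicate 1 or SKO+MEF2C day 10 replicate 2, with adjusted p of 0.0522 to 0.0643.

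Adamts7 and Adamts12 cut the cartilage protein COMP. At day 10, Adamts7 read 8.15 and 8.05 in SKO+HDAC7, 8.06 and 8.14 in SKO+MEF2C, 8.40 and 8.29 in SKO+Flag, and 6.73 in GFP. At day 6, Adamts7 read 8.30 and 8.34 in SKO+HDAC7, 7.97 and 7.97 in SKO+MEF2C, 8.35 and 8.36 in SKO+Flag, and 6.65 in GFP. All SKO arrays lay above GFP, and SKO+MEF2C was below SKO+Flag on both days. Adamts7 was 3.16-fold higher in SKO+Flag than with GFP and lower with MEF2C than in SKO+Flag (-0.32 ± 0.045, adjusted p = 0.000994). The difference between SKO+HDAC7 and SKO+MEF2C (0.17 ± 0.045, adjusted p = 0.0168) lost its call without any 1 of 4 arrays (SKO+HDAC7 day 6 replicate 2, SKO+HDAC7 day 10 replicate 1, SKO+MEF2C day 6 replicate 2 or SKO+MEF2C day 10 replicate 1), with adjusted p of 0.0504 to 0.0693. At day 10, Adamts12 read 6.66 and 6.51 in SKO+HDAC7, 6.56 and 6.56 in SKO+MEF2C, 6.34 and 6.51 in SKO+Flag, and 8.04 in GFP. At day 6, Adamts12 read 7.12 and 7.03 in SKO+HDAC7, 6.94 and 6.99 in SKO+MEF2C, 6.84 and 6.92 in SKO+Flag, and 7.56 in GFP. Adamts12 was lower in every SKO array than in GFP, and its differences from SKO+Flag did not pass the test (0.18 ± 0.053, adjusted p = 0.0576 with HDAC7 and 0.11 ± 0.053, adjusted p = 0.243 with MEF2C).

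Adamts6 is related to Adamts10, which acts on fibrillin microfibrils. At day 10, Adamts6 read 5.96 and 6.09 in SKO+HDAC7, 6.85 and 6.93 in SKO+MEF2C, 6.51 and 6.84 in SKO+Flag, and 6.28 in GFP. At day 6, Adamts6 read 6.01 and 6.16 in SKO+HDAC7, 6.82 and 6.76 in SKO+MEF2C, 6.61 and 6.55 in SKO+Flag, and 6.38 in GFP. SKO+HDAC7 was the lowest group on both days, below GFP too, and SKO+MEF2C was above SKO+Flag on both. The difference from SKO+Flag was -0.57 ± 0.071, adjusted p = 0.000448 with HDAC7 and 0.21 ± 0.071, adjusted p = 0.0966 with MEF2C. SKO+Flag exceeded GFP by 0.30 ± 0.087, adjusted p = 0.0201, a call that was lost without SKO+Flag day 6 replicate 1 (adjusted p = 0.0518) or with the compared groups alone (adjusted p = 0.0915).

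Bmp1 and Tll1 remove the carboxy-terminal propeptide of procollagen and cut chordin. At day 10, Tll1 read 6.52 and 6.54 in SKO+HDAC7, 8.59 and 8.71 in SKO+MEF2C, 6.87 and 7.04 in SKO+Flag, and 7.30 in GFP. At day 6, Tll1 read 7.97 and 7.86 in SKO+HDAC7, 8.55 and 8.46 in SKO+MEF2C, 8.001 and 7.88 in SKO+Flag, and 7.59 in GFP. SKO+MEF2C was the highest group on both days. SKO+HDAC7 lay below SKO+Flag at day 10 and overlapped it at day 6, where GFP was the lowest group. With MEF2C, Tll1 was 3.25-fold higher than in SKO+Flag at day 10 (1.70 ± 0.080, adjusted p = 1.98e-06) and 1.48-fold higher at day 6 (0.57 ± 0.080, adjusted p = 0.0037). With HDAC7 the averaged difference was -0.22 ± 0.056, adjusted p = 0.0277, and the call was lost without any 1 of 5 arrays (SKO+Flag day 6 replicate 1, SKO+Flag day 10 replicate 2, SKO+HDAC7 day 6 replicate 2 or either SKO+HDAC7 day 10 array), with adjusted p of 0.068 to 0.096. SKO+Flag was above GFP at day 6 (0.35) and below it at day 10 (-0.35), so their mean difference was 0.00 ± 0.069. At day 10, Bmp1 read 8.25 and 8.10 in SKO+HDAC7, 8.37 and 8.30 in SKO+MEF2C, 8.21 and 8.19 in SKO+Flag, and 8.98 in GFP. At day 6, Bmp1 read 8.32 and 8.28 in SKO+HDAC7, 8.36 and 8.47 in SKO+MEF2C, 8.24 and 8.38 in SKO+Flag, and 8.97 in GFP. Bmp1 was highest in GFP, and SKO+MEF2C lay above the other SKO arrays at day 10. SKO+Flag overlapped both other SKO groups at day 6, where SKO+HDAC7 lay below SKO+MEF2C. SKO+Flag was 1.65-fold lower than GFP (-0.72 ± 0.064, adjusted p = 4.65e-06), and neither HDAC7 (-0.02 ± 0.052, adjusted p = 0.885) nor MEF2C (0.12 ± 0.052, adjusted p = 0.203) passed the test against SKO+Flag.

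**Figure D3:**
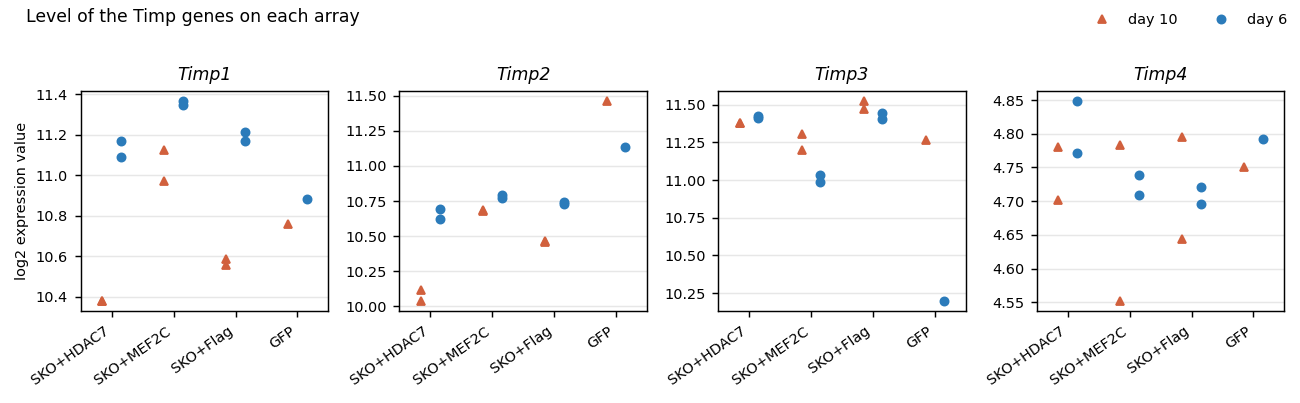
Log2 expression value of the 4 Timp genes on each of the 14 arrays, by vector, with day 10 as triangles and day 6 as circles and an own scale per panel. Timp4 lies below the array median throughout and Timp3 in GFP at day 6 (10.20) lies below all SKO arrays (10.99 and above).

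Timp1, Timp2 and Timp3 are secreted inhibitors, of which Timp3 binds to the matrix and also blocks several Adamts and membrane ADAM proteinases. At day 10, Timp1 read 10.38 and 10.38 in SKO+HDAC7, 10.97 and 11.13 in SKO+MEF2C, 10.56 and 10.59 in SKO+Flag, and 10.76 in GFP. At day 6, Timp1 read 11.09 and 11.17 in SKO+HDAC7, 11.35 and 11.37 in SKO+MEF2C, 11.21 and 11.17 in SKO+Flag, and 10.88 in GFP. SKO+MEF2C was the highest group on both days, and SKO+HDAC7 was the lowest at day 10. The difference from SKO+Flag was 0.32 ± 0.046, adjusted p = 0.00106 with MEF2C and -0.13 ± 0.046, adjusted p = 0.109 with HDAC7. At day 10, Timp2 read 10.11 and 10.04 in SKO+HDAC7, 10.68 and 10.68 in SKO+MEF2C, 10.47 and 10.46 in SKO+Flag, and 11.47 in GFP. At day 6, Timp2 read 10.62 and 10.69 in SKO+HDAC7, 10.79 and 10.77 in SKO+MEF2C, 10.75 and 10.73 in SKO+Flag, and 11.13 in GFP. GFP was the highest and SKO+HDAC7 the lowest on each day, without overlap. Timp2 fell with HDAC7 (-0.23 ± 0.040, adjusted p = 0.00347) and differed by 0.13 ± 0.040, adjusted p = 0.0617 with MEF2C, and it was 1.62-fold lower in SKO+Flag than with GFP. At day 10, Timp3 read 11.38 and 11.38 in SKO+HDAC7, 11.20 and 11.30 in SKO+MEF2C, 11.47 and 11.53 in SKO+Flag, and 11.27 in GFP. At day 6, Timp3 read 11.42 and 11.41 in SKO+HDAC7, 11.04 and 10.99 in SKO+MEF2C, 11.41 and 11.44 in SKO+Flag, and 10.20 in GFP. SKO+MEF2C was the lowest SKO group on both days. Timp3 fell with MEF2C (-0.33 ± 0.042, adjusted p = 0.00047), did not pass with HDAC7 (-0.06 ± 0.042, adjusted p = 0.38), and was higher in SKO+Flag than with GFP by 0.23 at day 10 and 1.23 at day 6. Timp4 read 4.55 to 4.85 and was called in 0 of the comparisons.

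At single days, with 2 arrays against 2, HDAC7 lowered 13 members and raised 0 at day 10 (3.95% of all genes were called lower and 3.33% higher) and lowered 4 and raised 1 at day 6 (2.76% and 1.82%). With median centring, 856 of all genes were lower and 465 higher at day 10, and 708 and 235 at day 6. Without either SKO+HDAC7 day 10 array, which leaves 1 array in that group, fewer members and a smaller share of all genes were called at day 10. At day 6, median centring gave 4 lowered and 0 raised, and quantile normalization 4 and 2. Fewer members and a smaller share of all genes were also called at day 6 without either SKO+Flag or either SKO+HDAC7 day 6 array. The same held without either SKO+HDAC7 day 10 array or either SKO+MEF2C day 6 array. MEF2C raised 8 and lowered 3 at day 10 (of all genes 4% higher and 3% lower) and raised 2 and lowered 4 at day 6 (1.33% and 1.77%). Median centring gave 5 raised and 3 lowered at day 10, and quantile normalization gave 6 and 4. Fewer members were called for MEF2C at day 10 without SKO+Flag day 10 replicate 1 or either SKO+MEF2C day 10 array. Without either SKO+MEF2C day 6 array, fewer members and a smaller share of all genes were called at day 6. Against GFP, SKO+Flag was lower in 20 and higher in 6 members at day 10 (of all genes 13.2% and 13.7%) and lower in 15 and higher in 6 at day 6 (10.8% and 13.2%). Whether that effect changed between the days was not tested.

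**Figure D4:**
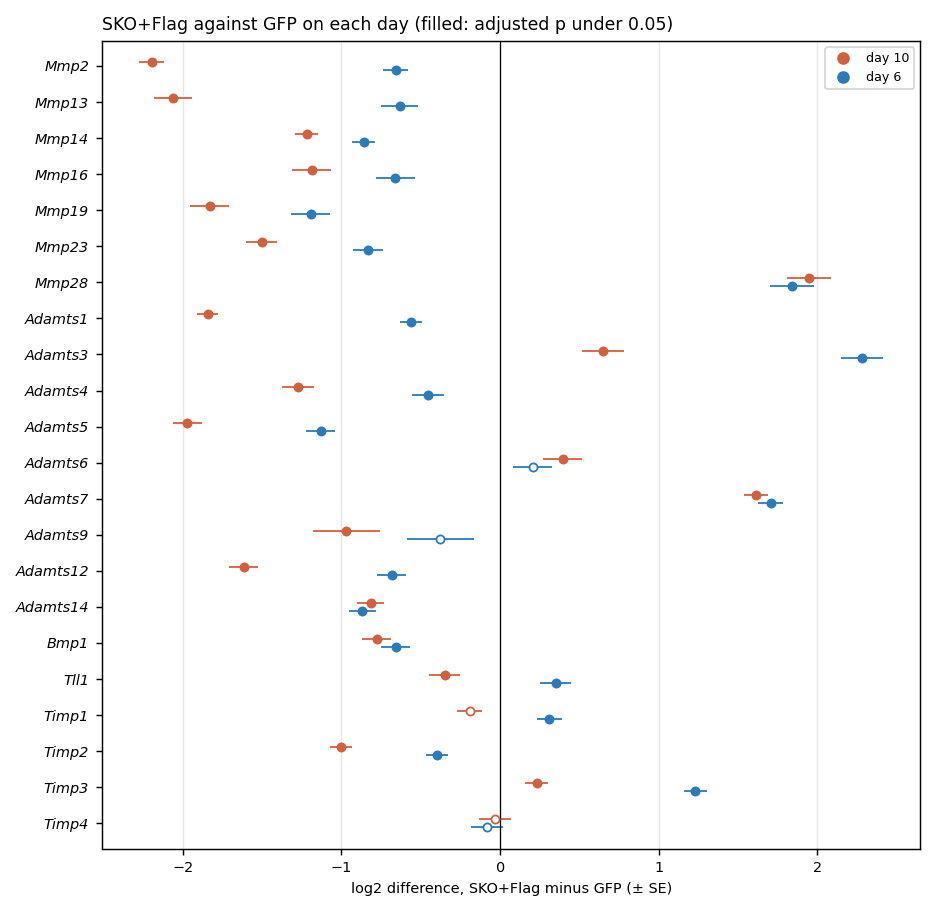
Log2 difference of SKO+Flag minus GFP at day 10 and at day 6 (value ± SE, 2 arrays against 1 on each day) for 22 members. Filled points had an adjusted p under 0.05. Mmp2 and Mmp13 lie farthest to the left at day 10, and Adamts3 farthest to the right at day 6.

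In SKO+HDAC7, 15 members were lower and 0 higher at day 10 than at day 6 (of all genes 6.7% lower and 7.86% higher), led by Tll1 (-1.39 ± 0.080), Adamts3 (-1.23 ± 0.11) and Adamts1 (-1.16 ± 0.056). In SKO+MEF2C, 3 were lower and 2 higher (1.23% and 1.85%), and the higher ones were Mmp3 (0.90 ± 0.088) and Mmp28 (0.49 ± 0.11). In SKO+Flag, 12 were lower and 2 higher (4.33% and 3.75%), led by Tll1 (-0.99 ± 0.080) and Adamts1 (-0.87 ± 0.056). The SKO+MEF2C count was 1 or 2 without any 1 SKO+MEF2C array, and the SKO+Flag count was 8 without SKO+Flag day 6 replicate 1. Timp1 fell in all 3 groups, by 0.75 in SKO+HDAC7, 0.31 in SKO+MEF2C and 0.62 in SKO+Flag.

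**Figure D5:**
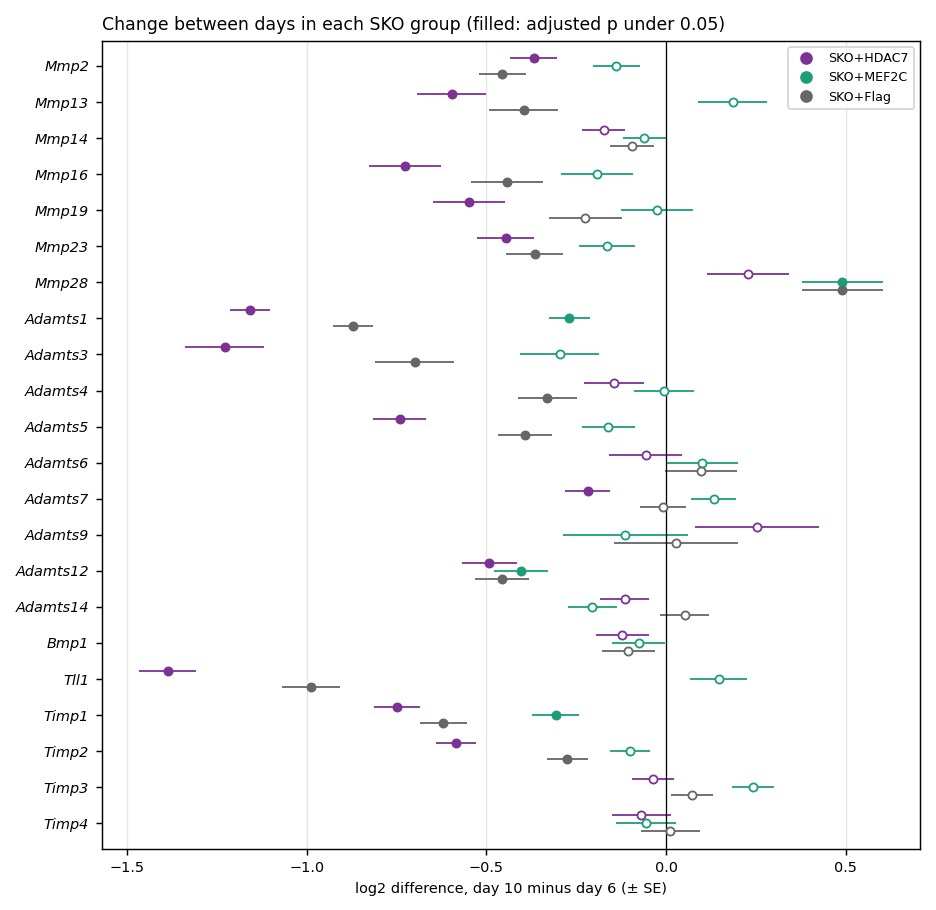
Log2 difference of day 10 minus day 6 (± SE, 2 arrays against 2) in SKO+HDAC7 (purple), SKO+MEF2C (green) and SKO+Flag (grey) for 22 members. Filled points had an adjusted p under 0.05. Tll1 lies at -1.39 in SKO+HDAC7, 0.15 in SKO+MEF2C and -0.99 in SKO+Flag.

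The test of the difference between the days was passed by 2 members for MEF2C, both on the higher side, where 0.0451% of all genes were called (0.0401% on the lower). With median centring, 6 of all genes were higher and 11 lower. The MEF2C effect was larger at day 10 than at day 6 for Tll1 (1.13 ± 0.11, adjusted p = 0.00563) and for Adamts1 (0.60 ± 0.079, adjusted p = 0.0239). In SKO+Flag both genes were lower at day 10 than at day 6, and in SKO+MEF2C Tll1 differed by 0.15 ± 0.080, adjusted p = 0.482 between them. The call of Adamts1 was lost without any 1 of 9 arrays (either SKO+Flag day 6 array, SKO+Flag day 10 replicate 1, either SKO+HDAC7 day 6 array or any SKO+MEF2C array), with adjusted p of 0.0517 to 0.155, and that of Tll1 without SKO+MEF2C day 6 replicate 2, with adjusted p = 0.0656. For the HDAC7 effect limma called 0 of 47 members (10 at an unadjusted p under 0.05), against 0.0401% of all genes on the higher and 0.0853% on the lower side (9 and 9 genes with median centring), and 1 member was called without either SKO+Flag day 10 array. The largest change was that of Mmp3 (-0.76 ± 0.12, adjusted p = 0.0581).

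Other proteins that govern these enzymes were counted in lists, averaged over both days. Some genes are also in a marker list: the substrates Col1a1, Col1a2 and Col3a1 and the regulator Fn1 among the fibroblast markers, the substrates Acan and Col2a1 among the chondrocyte markers, and the cathepsin Ctsk among the osteoclast markers. Of all genes, 4.83% were called higher and 6.06% lower with HDAC7, and 5.49% and 4.82% with MEF2C. Against GFP, 17.5% were higher and 18.2% lower in SKO+Flag. Of the 7 measured genes of plasminogen activation, which starts the cascade that cuts pro-Mmp proteins, 1 rose with HDAC7 (the receptor Plaur, 0.42) and 0 fell. MEF2C raised 2 of the 7, namely the activator Plau (0.44) and Plaur (0.27), and SKO+Flag was lower than GFP in 2, Plat (-2.25) and Plau (-1.91). Of 13 other regulators, 2 rose and 5 fell with HDAC7, led by Thbs1 (-0.87), a matrix protein that binds Mmp2, Sfrp1 (-0.55), a secreted Wnt antagonist, and Reck (-0.45), a membrane inhibitor of Mmp enzymes, while 4 rose with MEF2C, led by Fn1 (0.43) and Thbs1 (0.40), and 1 fell (Sfrp1, -0.21). SKO+Flag was higher than GFP in 2 of the 13 and lower in 6. It exceeded GFP in Pcolce2, an enhancer of the tolloid proteinases, by 3.08. The largest decreases were those of Fn1 (-0.95), Bsg (-0.47) and Thbs2 (-0.42).

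Of the 5 ADAMTS-like proteins, which lack the proteinase domain, 2 rose and 0 fell with HDAC7 and 0 rose and 1 fell with MEF2C. SKO+Flag was higher than GFP in 2 of the 5, Adamtsl1 (0.68) and Adamtsl4 (0.40), and lower in 1, Adamtsl3 (-1.56). Of 11 membrane ADAM proteinases, 1 rose and 3 fell with HDAC7 and 2 rose and 2 fell with MEF2C, and SKO+Flag was higher than GFP in 5 and lower in 4, with Adam23 at 2.20 and Adam12 at -1.65. Of 5 cathepsins, 0 rose and 1 fell with HDAC7, whereas 3 rose and 0 fell with MEF2C, led by Ctsl (0.44). SKO+Flag was higher than GFP in 0 of the 5 and lower in 3, led by Ctsk (-0.95) and Ctsb (-0.56). Of the 12 AP-1 and ETS factors, 1 rose with HDAC7 (Jun, 0.48) and 3 fell (Ets2 -0.40, Etv5 -0.25 and Fosl2 -0.21). With MEF2C, 0 rose and 4 fell, led by Etv1 (-0.30) and Jun (-0.27). SKO+Flag was higher than GFP in 4 and lower in 5. The largest of these differences were Etv5 (1.79), Etv1 (1.44), Etv4 (0.53) and Fosl2 (-0.53). Of 13 substrates, 3 rose and 6 fell with HDAC7, with Col3a1 at 0.88 and Eln at -0.68. With MEF2C, 2 rose and 0 fell, with Acan, the aggrecan that Adamts1, Adamts4 and Adamts5 cut, at 0.81. SKO+Flag was higher than GFP in 3 of the 13 and lower in 7, with Col3a1 at -2.25 and Col1a1 at -1.14.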

How the data were processed

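Total RNA of 14 samples was hybridised to 1 Affymetrix whole-transcript array each, per the labels' protocols. Per probe set, the authors deposited a log2 expression value; the submitters' processing notes name RMA and Partek, with no version. They were used as deposited, with no further scaling, no filter and no detection call. Precision is limited by the number of arrays, and no genome build is named in the labels used. Gene names came from the platform annotation: of 28815 probe sets, 21780 carry 1 symbol, 1605 several and 5430 none, and those with several or none were left out. Of the named probe sets 21689 matched a RefSeq table (GRCm38.p6) by Entrez ID, and 0 member symbols changed. Each of the 19935 genes was represented by its probe set with the highest mean.

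Groups came from the sample labels. One group-means model (limma 3.58.1 in R 4.3.3, lmFit and eBayes) was fitted to 14 arrays in 8 groups of vector and day, with 6 residual and 4.71 prior degrees of freedom, and a gene was called at a two-sided Benjamini-Hochberg adjusted p under 0.05 over all genes. Folds are taken from log2 differences. A group below the array median on all its arrays is treated as not shown to be above background, which makes its fold a lower bound. Members with values per array were those called in a comparison averaged over days with a difference of at least 0.5, all Timp genes, and Mmp2, Mmp14 and Bmp1. Mmp3 was added later. From the other gene lists, up to 4 genes were named per list by size among those called. The members, lists and tests were chosen with earlier results of these data known. Promoter windows are RefSeq sequences. The procedure was run on simulated data with planted differences and noise drawn independently per array. Such data cannot test the spread assumed for GFP, the scaling, or whether replicates were technical. No pair of replicate arrays was identical (SD of differences 0.117 to 0.171). Deviations of arrays with the same experiment number correlated between -0.242 and 0.184 over 15 pairs of groups, above 0.1 in 4, so the numbers were not taken to pair the arrays.

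Alternatives were an intensity-dependent robust prior, a fit to the compared groups alone, median centring, quantile normalization, averaging the probe sets of a gene, a filter at the median level, the experiment number as a replicate block, and leaving out each array.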

Additional observations from a re-analysis of the deposited data

Results flagged for a closer look

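The effect of MEF2C differed between the days for 2 members by a test of the difference itself. For Tll1 it was larger at day 10 by 1.13 on the log2 scale (limma adjusted p = 0.00563), with 8.59 and 8.71 in SKO+MEF2C against 6.87 and 7.04 in SKO+Flag at day 10, and 8.55 and 8.46 against 8.001 and 7.88 at day 6. For Adamts1 it was larger by 0.60 (adjusted p = 0.0239), with 8.98 and 9.02 in SKO+MEF2C against 8.04 and 8.07 in SKO+Flag at day 10, and 9.26 and 9.28 against 8.88 and 8.97 at day 6. The Adamts1 call was lost in most fits that left out 1 array of the compared groups, as given above, and the Tll1 call without SKO+MEF2C day 6 replicate 2. With the compared groups alone both calls were lost (limma adjusted p = 0.0694 for Tll1 and 0.104 for Adamts1).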

How the results depend on the processing

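Of 59 called results of named members, 49 kept their direction and their call under every alternative that was run. Of 1257 values 46 lost the call and 0 were reversed, but many of them could not reverse. The difference itself is unchanged by another prior, by the compared groups alone or by the level filter. It is also unchanged by leaving out an array outside the compared groups. Such values show only whether a call was kept. With the compared groups alone, averaged over days, 10 members were called for HDAC7, 12 for MEF2C, 18 between them and 24 against GFP. The count fell most, as a ratio, in 6 other comparisons, and the cause was not tested: 3 (HDAC7 at day 6), 5 (HDAC7 at day 10), 4 (MEF2C at day 10), 3 (days in SKO+MEF2C), 4 (days in SKO+Flag) and 0 (change of the MEF2C effect between the days, where Tll1 had adjusted p = 0.0694 and Adamts1 0.104). These fits have fewer residual degrees of freedom, and calls fell over all genes as well. The share called went from 4.58% to 1.88% for HDAC7 at day 6 and from 7.27% to 2.51% at day 10. For MEF2C at day 10 it went from 7.01% to 2.52%. Averaged over days, it went from 10.9% to 8.18% for HDAC7 and from 10.3% to 8.74% for MEF2C. Between SKO+HDAC7 and SKO+MEF2C it went from 22% to 24.8%, and against GFP from 35.7% to 26.4%. For the change of the HDAC7 effect between the days, 1 member was called with the robust prior, with quantile normalization and with genes above the median level; the cause was not tested. With the replicate block within each day 1 member was called for the change of the MEF2C effect, and Adamts1 had adjusted p = 0.0794. For the mean over days the same block gave 13 members for HDAC7, 11 for MEF2C, 20 between them and 27 against GFP, and a block with crossed numbers, chosen after seeing the data, gave 14 for the days in SKO+Flag. Averaged over days, HDAC7 lost Mmp19 (adjusted p = 0.0526), Tll1 (0.0531) and Mmp11 with the compared groups alone.

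Leaving out 1 array gave 9 to 15 members called for HDAC7, 9 to 13 for MEF2C, 15 to 18 between them and 25 to 29 for SKO+Flag against GFP, all averaged over days. At single days the ranges were 7 to 13 (day 10) and 1 to 7 (day 6) for HDAC7, 3 to 12 and 2 to 7 for MEF2C, and 22 to 27 and 17 to 23 against GFP. For the days they were 12 to 15 in SKO+HDAC7, 1 to 5 in SKO+MEF2C and 8 to 14 in SKO+Flag, and for the change of the effects between the days 0 to 1 (HDAC7) and 0 to 2 (MEF2C). The share of all genes called moved in many of these fits too. Without a GFP array its day has no value against GFP. Members below the array median cannot be told from background here.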
